A study of Danio rerio with 4 samples.

Results

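The genes described here are those of the TGF-beta and BMP signalling pathways. They are the gene IDs of the count table whose zebrafish symbol names a TGF-beta, BMP, GDF or activin ligand, a receptor of these ligands, a SMAD, a latent TGF-beta binding protein, noggin, gremlin or an ID protein, 80 of 32105 IDs. The name rule also took TGFBI, BMP1, BMP2K and TGFBRAP1, which carry the pathway's name in another role. By role, 31 are ligands, 21 receptors, 13 SMADs, 8 extracellular regulators, 5 targets and 2 other genes.

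TGF-beta, activin and BMP ligands are secreted dimers that bring together a type II and a type I receptor kinase on the cell surface. The type I receptor phosphorylates receptor SMADs, which join SMAD4 and act on genes in the nucleus, with SMAD2 and SMAD3 mostly downstream of TGF-beta and activin, and SMAD1, SMAD5 and SMAD9 downstream of BMP. Inhibitory SMADs and secreted antagonists such as noggin limit the signal. In vessels the pathway is known for its part in the contact between endothelium and mural cells, and in the adult zebrafish brain id1 is known as a gene of quiescent radial glia.

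RNA was sequenced from 4 libraries, each labelled as pericytes of adult wildtype zebrafish that carry an EGFP transgene under pdgfr beta control. Brains were dissociated with Liberase, EGFP-positive cells were sorted, and the RNA was amplified before sequencing. Each library is a pool of 6 brains, and all of them carry the transgene, so there is a single group and no control. The design text speaks of 3 preparations against 4 listed samples, and a cell type tag reads muLEC where the titles say pericyte. The table heads its columns B1 to B4 with no link to the numbered samples, and these names are used for the libraries.

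Total counts ran from 33270774 in B1 to 40441253 in B4, so that 3 counts correspond to between 0.0751 and 0.0879 CPM, a floor for counting error only. The receptor gene of the sort, PDGFRB, was at 219, 76.0, 121 and 46.0 CPM in B1 to B4. Above the median tested gene by edgeR, where 36.8% of all tested genes lay, were 9 of 12 tested IDs of the pericyte marker list. So were 10 of 12 radial glia IDs, 8 of 10 smooth muscle, 7 of 10 fibroblast, 6 of 8 oligodendrocyte, 5 of 8 microglia and macrophage, 4 of 7 lymphatic, 5 of 12 neuron, 1 of 8 endothelial and 1 of 3 erythrocyte IDs. No marker ID of these lists had 0 counts in all 4 libraries. These markers do not bear out a single cell type, and the cells are called pdgfrb-EGFP-sorted here. Library B1 stood apart, being at least 2-fold above every other library for 15% of all 17283 tested genes and at least 2-fold below every other for 15.5%. The shares for the other 3 libraries were between 0.816% and 2.12%. In B1 the summed radial glia markers were at 26677 CPM, against 47362 to 52550 CPM in the others, and the summed neuron markers were at 707 CPM against 172 to 286 CPM. The pericyte sum was also highest in B1, at 2150 CPM against 867 to 1538 CPM, with 5 of 14 IDs highest there and 6 lowest. KCNE4 alone was at 955 CPM in B1 against 98.9 to 116 CPM in the others. Among the 6 lowest there, rgs5b was at 26.8 CPM in B1 against 178 to 680 CPM, and NDUFA4L2 at 26.8 CPM against 113 to 171 CPM. The endothelial sum was highest in B1 too, at 321 CPM against 45.0 to 79.9 CPM, with 2 of 8 IDs highest there. A CLDN5 copy (ENSDARG00000043716) alone was at 239.6 CPM in B1. Of the oligodendrocyte list, 5 of 8 IDs were highest in B1 and 2 were lowest there. OLIG2 was at 104 CPM in B1 against 10.7 to 14.7 CPM, and SOX10 at 61.9 CPM against 2.98 to 9.53 CPM. The list's cnp was at 469 CPM in B1 against 59.2 to 80.9 CPM. Lowest in B1 were mbpa, at 362 CPM against 732 to 2595 CPM, and mbpb, at 16.2 CPM against 26.4 to 54.7 CPM. The oligodendrocyte sum in B1, 2258 CPM, lay within the range of the others. The smooth muscle sum was lowest in B1, at 555 CPM against 780 to 989 CPM, with 6 of 13 IDs lowest there and 4 highest. In bulk RNA, fewer cells of a type and less RNA per cell cannot be told apart.

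Most of the pathway was read in these cells. At least 1 CPM was found in all 4 libraries for 57 of the 80 genes, in some libraries for 9 and in none for 14, and every gene had a count in at least 1 library. A gene was tested where 2 or more libraries reached 1 CPM, which held for 61 of the 80 and left 19 out. Of all 32105 IDs, 15056 reached 1 CPM in all 4 libraries and 17283 were tested. Each tested gene's level was set against the median tested gene at 12.6 CPM, called the reference level. By edgeR's quasi-likelihood test 26 of the 61 lay above it, 14 below it and 21 on neither side, at an adjusted p under 0.05. The number below was 9 without B4. The pathway genes above made 42.6% of those tested, against 36.8% of all tested genes, and those below 23%, against 33.2%. These differences in share were not tested. The median tested pathway gene stood at 15.9 CPM, close to the reference level. These levels are reads per gene with no correction for transcript length, so they set no order between genes. The p-values rest on the spread between 4 pools, which may be partly technical and is drawn by the fit toward that of other genes. With 3 preparations stated, the 4 libraries may not all be independent, which would also touch every SE and SD given here.

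**Figure D1:**
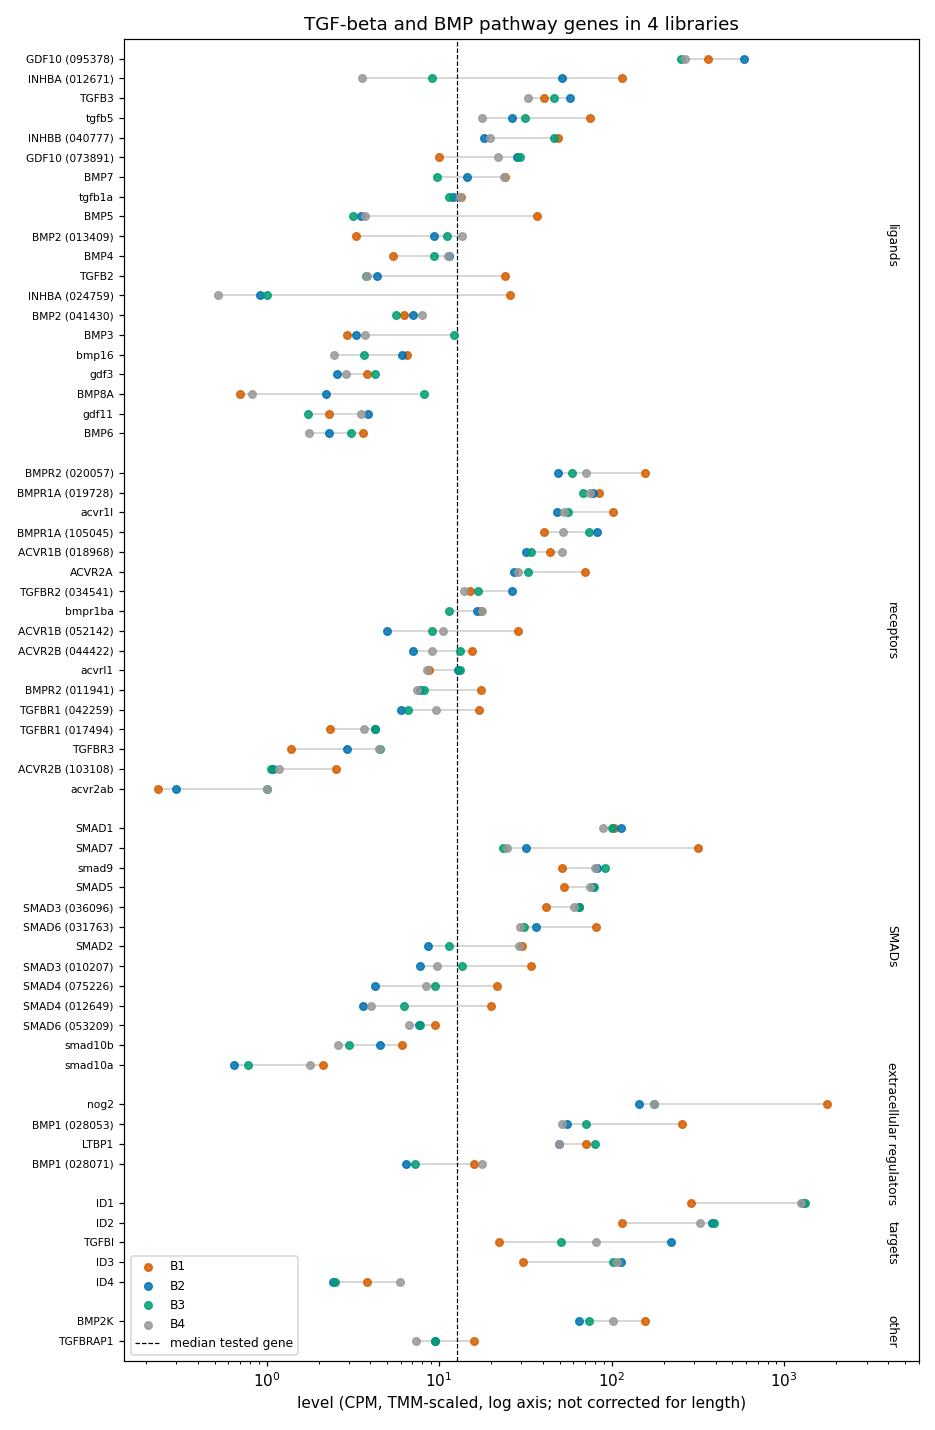
Level of each tested pathway gene in the 4 libraries (points, CPM on a log axis, not corrected for length), grouped by role, with the median tested gene as a dashed line. Gene copies that share a symbol carry the end of their Ensembl ID, and the orange points of B1 lie far to the right for nog2, SMAD7, BMP5 and INHBA and far to the left for ID1, ID2 and ID3.

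Of the 20 ligand IDs tested, 6 passed above the reference level and 6 below it. GDF10, a BMP3-related ligand, was represented by a pair of copies. The copy ENSDARG00000095378 was at 360.1, 588, 252 and 265 CPM in B1 to B4 (log2 4.86 ± 0.28 above the reference level, SE, edgeR adjusted p = 4.2e-07). The second GDF10 copy, ENSDARG00000073891, was at 10.02, 28.3, 29.3 and 22.0 CPM, and also lay above (log2 0.83 ± 0.29, SE, edgeR adjusted p = 0.0288). B2 was highest for the first copy and B1 lowest for the second. TGFB3, a TGF-beta isoform, spanned 1.73-fold between libraries, at 40.6, 57.1, 46.1 and 32.9 CPM (log2 1.81 ± 0.22 above the reference level, edgeR adjusted p = 0.000159). The related tgfb5 was at 74.8, 26.4, 31.6 and 17.7 CPM (log2 1.57 ± 0.36, edgeR adjusted p = 0.00328). Its highest library was B1, 2.36-fold above the next.

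Activin beta subunits were read from 4 IDs. INHBA encodes the beta A subunit, and its copy ENSDARG00000012671 was at 115, 51.5, 9.11 and 3.58 CPM in B1 to B4, a 31.7-fold span. It passed above the reference level (log2 1.83 ± 0.72, edgeR adjusted p = 0.0255). The call was lost by limma-voom (log2 0.72), by edgeR without B1 (log2 0.75) and by edgeR without B2 (log2 1.79), and the alternatives' adjusted p ran from 0.0085 to 0.431. Its mean was 44.8 CPM, and 21.4 CPM without B1. The second INHBA copy, ENSDARG00000024759, was at 25.9 CPM in B1 and between 0.526 and 1.01 CPM in the others, and passed on neither side. For both copies B1 was the highest library. INHBB, the beta B subunit gene (ENSDARG00000040777), was high in B1 and B3, at 48.6 and 46.1 CPM, and lower in B2 and B4, at 18.1 and 19.7 CPM (log2 1.39 ± 0.32, edgeR adjusted p = 0.00361). Its second copy, ENSDARG00000103892, reached 3.55 CPM in B1 and stayed under 1 CPM elsewhere.

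None of the genes for BMP2 to BMP8A passed above the reference level. BMP7 (ENSDARG00000063230) was at 24.1, 14.5, 9.75 and 23.9 CPM and BMP4 at 5.42, 11.4, 9.36 and 11.2 CPM, neither passing. BMP2 in the copy ENSDARG00000013409 was at 3.28 CPM in B1 and 9.37 to 13.6 CPM in the others. The other BMP2 copy, ENSDARG00000041430, was nearly even at 5.61 to 7.96 CPM and lay below (log2 -0.91 ± 0.23, edgeR adjusted p = 0.0157). So the copies of BMP2 differed in their pattern across libraries as well. BMP6 averaged 2.70 ± 0.83 CPM (SD, n = 4 here and below), bmp16 4.70 ± 1.95, gdf3 3.38 ± 0.79, gdf11 2.85 ± 1.00 and BMP8A 2.98 ± 3.52 CPM, and these 5 lay below the reference level. BMP8A rested on B3, at 8.16 CPM, with a mean of 1.25 CPM without B3. BMP3 was likewise highest in B3, at 12.2 CPM against 2.93 to 3.73 CPM, with a mean of 5.52 CPM, and 3.31 CPM without B3. Of the ligands on neither side, tgfb1a was even across libraries, at 11.4 to 13.4 CPM. BMP5 and TGFB2, singled out after their values were seen, were at 37.1 and 24.1 CPM in B1 and at most 3.73 and 4.39 CPM in the others, with means without B1 of 3.49 and 4.00 CPM.

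Not tested were 11 ligand IDs. GDF5, tgfb1b and bmp7a reached 1 CPM in a single library each, and so did the second INHBB copy. GDF7, bmp15, GDF2, gdf6a, gdf6b, GDF9 and BMP10 stayed under 1 CPM in all 4. GDF7 had 0 counts in B1, which allows up to 0.0879 CPM for counting error, and 16 or 17 counts in each other library.

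Among receptors 6 of 17 tested IDs passed above the reference level and 4 below it. BMPR1A is a type I receptor for BMP. Its copy ENSDARG00000019728 was at 84.9, 77.7, 68.4 and 75.3 CPM in B1 to B4 (log2 2.60 ± 0.20, edgeR adjusted p = 8.55e-06). The copy ENSDARG00000105045 was lower in B1, at 40.5 CPM, than in the others, at 82.1, 73.5 and 52.1 CPM (log2 2.30 ± 0.24, edgeR adjusted p = 5.94e-05). The type I receptor acvr1l, known in zebrafish as the BMP receptor Alk8, was at 102 CPM in B1 and 48.4 to 55.8 CPM in the others (log2 2.36 ± 0.26, edgeR adjusted p = 6.22e-05). ACVR1B, an activin type I receptor, was at 43.9, 31.9, 34.3 and 51.8 CPM in the copy ENSDARG00000018968 (log2 1.68 ± 0.22, edgeR adjusted p = 0.00024). Its second copy, ENSDARG00000052142, passed on neither side and was at 28.7 CPM in B1 against 4.96 to 10.5 CPM. Its mean was 13.3 CPM, and 8.20 CPM without B1.

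Both the BMP and the activin type II receptor were highest in B1. BMPR2, the BMP type II receptor (ENSDARG00000020057), was at 156 CPM in B1 and at 49.0, 58.6 and 71.3 CPM in B2 to B4 (log2 2.73 ± 0.32, edgeR adjusted p = 7.42e-05). ACVR2A, an activin type II receptor, was at 70.0 CPM in B1 and 27.1 to 32.6 CPM in the others (log2 1.65 ± 0.29, edgeR adjusted p = 0.00116). In both genes B1 was more than 2-fold above the next library. Its copy acvr2ab was at 0.234 to 1.01 CPM and lay below (log2 -4.31 ± 0.49, edgeR adjusted p = 0.00178), highest in B3 and B4. The second BMPR2 copy, ENSDARG00000011941, showed the same highest library, with 17.4 CPM in B1 and 7.48 to 8.21 CPM elsewhere, and passed on neither side.

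The receptors for TGF-beta itself were read from 4 IDs of TGFBR1 and TGFBR2, none of those tested above the reference level, and from tgfbr2l, under 1 CPM in all 4 libraries. TGFBR2 (ENSDARG00000034541) was highest in B2, at 26.5 CPM, and at 13.9 to 16.8 CPM in the others. Its second copy, ENSDARG00000059363, was at 0.400 to 1.62 CPM and was not tested. TGFBR1 (ENSDARG00000042259) was at 17.1 CPM in B1 and 6.01 to 9.56 CPM in the others. Neither ENSDARG00000034541 nor ENSDARG00000042259 passed on either side of the reference level. The TGFBR1 copy ENSDARG00000017494, at 2.34 CPM in B1 and 3.68 to 4.25 CPM elsewhere, and the co-receptor gene TGFBR3, at 1.38 to 4.53 CPM, lay below it. ACVR2B lay below in the copy ENSDARG00000103108, averaging 1.46 ± 0.71 CPM, and on neither side in ENSDARG00000044422, averaging 11.2 ± 3.82 CPM. The endothelial type I receptor gene acvrl1 averaged 10.8 ± 2.60 CPM and bmpr1ba 15.9 ± 2.97 CPM, both on neither side, while bmpr1bb and ACVR1C stayed under 1 CPM.

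All 13 SMAD genes were tested, and 6 passed above the reference level and 3 below it. The 3 receptor SMADs of the BMP arm were among those above. SMAD1 was at 103, 113, 100.2 and 89.3 CPM in B1 to B4 (log2 3.01 ± 0.20, edgeR adjusted p = 3.38e-06). SMAD5 was at 52.7 CPM in B1 and 75.4 to 79.0 CPM in the others (log2 2.50 ± 0.21, edgeR adjusted p = 1.61e-05). The third of them, smad9, was at 51.6 CPM in B1 and 80.1 to 91.2 CPM elsewhere (log2 2.59 ± 0.23, edgeR adjusted p = 1.69e-05). Both SMAD5 and smad9 were thus lowest in B1, by 1.43-fold and 1.55-fold against the next library, and SMAD1 was not.

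Of the receptor SMADs of TGF-beta and activin, SMAD3 in the copy ENSDARG00000036096 was also lowest in B1, at 41.8 CPM against 60.5 to 64.8 CPM (log2 2.20 ± 0.21, edgeR adjusted p = 3.96e-05). The second SMAD3 copy, ENSDARG00000010207, had the opposite order, at 34.0 CPM in B1 against 7.75 to 13.7 CPM, with a mean of 16.3 CPM, and 10.4 CPM without B1. SMAD2 was at 30.4 and 29.0 CPM in B1 and B4 and at 8.59 and 11.4 CPM in B2 and B3, and neither gene passed. SMAD4, the shared partner, was highest in B1 in both copies, with 21.5 CPM for ENSDARG00000075226, where no other library exceeded 9.47 CPM, and 20.1 CPM for ENSDARG00000012649, where none exceeded 6.26 CPM. Neither copy passed. The mean of the second was 8.503 CPM, and 4.64 CPM without B1.

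Both inhibitory SMADs were highest in B1. SMAD7, which blocks type I receptors, was at 315 CPM in B1 and at 31.7, 23.5 and 24.7 CPM in B2 to B4, so that B1 was 9.93-fold above the next library. It lay above the reference level (log2 2.97 ± 0.69, edgeR adjusted p = 0.00156). Its mean was 98.8 CPM, and 26.6 CPM without B1, where it still passed (log2 1.06). SMAD6, which acts mainly on BMP signalling, was at 80.9 CPM in B1 and 29.6 to 36.3 CPM in the others in the copy ENSDARG00000031763 (log2 1.82 ± 0.31, edgeR adjusted p = 0.00082). The other SMAD6 copy, ENSDARG00000053209, was nearly even at 6.68 to 9.40 CPM and lay below (log2 -0.68 ± 0.22, edgeR adjusted p = 0.0377). Leaving out B2, B3 or B4 ended that call (log2 -0.64, -0.69 and -0.60), and the alternatives gave adjusted p between 0.00923 and 0.166. The zebrafish genes smad10a and smad10b averaged 1.33 ± 0.72 and 4.05 ± 1.60 CPM and lay below too.

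Of the 8 extracellular regulators 4 were tested, 3 of them above the reference level and none below. The noggin gene nog2, whose product binds and blocks BMP ligands, was at 1771 CPM in B1 and at 144, 176 and 176 CPM in B2 to B4. B1 was 10.03-fold above the next library, and the other 3 lay close together. It lay above the reference level (log2 5.49 ± 0.67, edgeR adjusted p = 7.54e-06), and its mean was 567 CPM, against 165 CPM without B1. BMP1, a metalloprotease that cleaves procollagen and the BMP antagonist chordin, was at 255 CPM in B1 and 51.3 to 71.5 CPM in the others in the copy ENSDARG00000028053 (log2 3.10 ± 0.44, edgeR adjusted p = 0.000133). Its mean was 108 CPM, and 59.2 CPM without B1. The second BMP1 copy, ENSDARG00000028071, was highest in B4, at 17.7 CPM, with 16.0 CPM in B1, and passed on neither side. LTBP1, which holds latent TGF-beta in the matrix, was at 71.2, 49.8, 80.3 and 49.6 CPM (log2 2.31 ± 0.22, edgeR adjusted p = 3.67e-05). GREM1, a BMP antagonist gene with a pair of copies, stayed under 1 CPM in all 4 libraries in both.

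The ID genes encode helix-loop-helix proteins without a DNA-binding region that hold back other transcription factors of that class, and they are known direct targets of BMP signalling. ID1, ID2 and ID3 were abundant and lowest in B1. ID1 (ENSDARG00000040764) was at 286 CPM in B1 and at 1293, 1317 and 1255 CPM in B2 to B4, a 4.38-fold gap below the next library. ID2 (ENSDARG00000055283) was at 115 CPM in B1 and at 382, 394 and 323 CPM in the others, a 2.80-fold gap. ID3 was at 30.7 CPM in B1 and at 113, 102 and 107 CPM in the others, a 3.33-fold gap. In each of these genes B2, B3 and B4 lay close together and B1 alone was low. Their levels were above the reference level by 6.36 ± 0.38, 4.59 ± 0.32 and 2.81 ± 0.33 log2 units (edgeR adjusted p of 1.51e-07, 1.33e-06 and 6.93e-05). ID4 did not share the pattern, with 3.81 CPM in B1, 2.44 and 2.49 CPM in B2 and B3 and 5.96 CPM in B4, and lay below (log2 -1.78 ± 0.32, edgeR adjusted p = 0.00581).

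TGFBI, a secreted matrix protein gene induced by TGF-beta, was also lowest in B1, at 22.2 CPM, but uneven among the others at 221, 50.9 and 81.4 CPM (log2 2.89 ± 0.50, edgeR adjusted p = 0.00043). Its mean of 94.0 CPM was 51.5 CPM without B2. So 4 of the 5 genes classed as targets here were at least 2-fold lower in B1 than in every other library. That state was found for 15.5% of all tested genes.

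**Figure D2:**
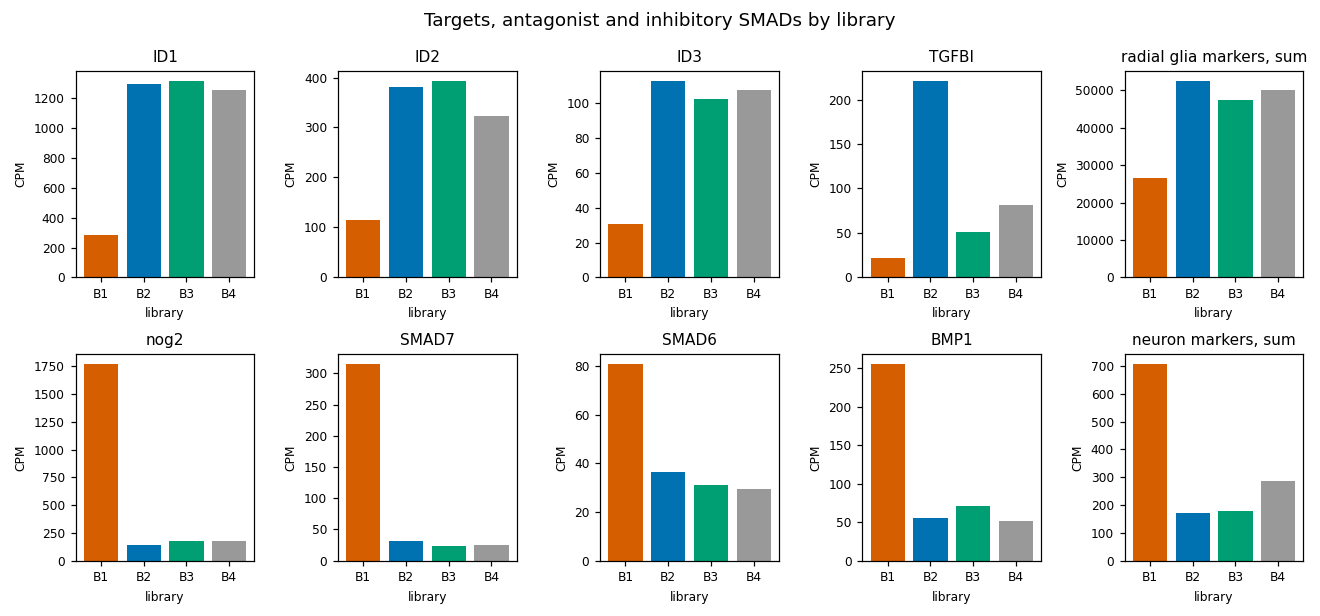
Level in each library (bars, CPM from 0) of 4 targets in the upper row and of nog2, SMAD7, SMAD6 (ENSDARG00000031763) and BMP1 (ENSDARG00000028053) in the lower row, with the summed radial glia markers at the right of the upper row and the summed neuron markers at the right of the lower. B1 is the lowest bar for these 4 targets, 286 CPM for ID1, and the highest for the genes of the lower row, 1771 CPM for nog2. The genes are a selection, so no contrast between roles is read from them. Not among them are the target ID4, at 3.81 CPM in B1 against 2.44 to 5.96 CPM in the others, and LTBP1, highest in B3. The BMP1 copy ENSDARG00000028071, highest in B4, is not among them either.

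Beside this, the radial glia list, to whose cells id1 is known to belong in zebrafish, was also lower in B1 in sum, with 10 of its 12 IDs lowest there. The lower sum came mostly from a GLUL copy (ENSDARG00000099776), at 6530 CPM in B1 against 18839 to 22271 CPM, and a FABP7 copy (ENSDARG00000007697), at 1570.0 CPM against 7139 to 11475 CPM. The abundant SLC1A2 copy ENSDARG00000102453 was at 10577 CPM in B1 against 6563 to 11802 CPM, and the SLC1A3 copy ENSDARG00000043148 at 1572 CPM against 767 to 1955 CPM, so neither was lowest in B1. Set against the summed radial glia markers of the same library, ID1 was 1.07% in B1 and 2.46%, 2.78% and 2.51% in B2 to B4. The same share was 0.433% for ID2 in B1 against 0.647% to 0.831%, and 0.115% for ID3 against 0.215% to 0.216%. Each of the 3 genes was still lowest in B1 on that scale, which rests on the few genes that make up most of the sum. Against the FABP7 copy ENSDARG00000007697 alone, which was lower in B1 by a larger factor, each of them would be highest in B1. The outcome thus depends on which markers are summed, and no excess over the radial glia markers is read from it. The neuron list was higher in B1, with 12 of 14 IDs highest there. Set against the summed neuron markers, nog2 was 250.4% in B1 and 61.5% to 99.2% in the others, and SMAD7 was 44.6% against 8.66% to 18.4%. On that scale SMAD6 (ENSDARG00000031763) was 11.4% in B1 against 10.3% to 21.1%, and BMP1 (ENSDARG00000028053) 36.1% against 18.0% to 40.2%. Both values in B1 lay within the range of the others. ELAVL3 made up 344 CPM of the neuron sum in B1, against 36.4 to 104 CPM in the others. Only the radial glia and neuron lists were used as such scales. Each gene was set there against the list that moved its own way in B1, a choice that by itself narrows the gap. Against the radial glia sum, SMAD6 (ENSDARG00000031763) was 0.303% in B1 and 0.0591% to 0.0691% in the others. BMP1 (ENSDARG00000028053) was 0.957% against 0.103% to 0.151% on that scale. Against the neuron sum, ID1 was 40.5% in B1 and 439% to 751% in the others. Whether radial glia, neurons or cells of the pericyte, smooth muscle, endothelial and oligodendrocyte lists had a part in the pathway genes' pattern was not tested.

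Across roles, B1 was the highest library for 32 of 61 tested pathway genes, or 52.5%, against 36% of all tested genes. It was at least 2-fold above every other library for 17, or 27.9%, against 15% of all tested genes, and at least 2-fold below for 7, or 11.5%, against 15.5%. Of the 17 high in B1, 5 were ligands, 5 receptors, 5 SMADs and 2 extracellular regulators. None was a target as classed here, a class set by gene name that holds only the ID genes and TGFBI. Whether genes in other roles are targets too was not judged. Among those are the inhibitory SMAD7 and SMAD6 (ENSDARG00000031763), both high in B1, so no contrast between targets and regulators is read. Of the 7 low in B1, 4 were targets, and the others were the ligand copies GDF10 (ENSDARG00000073891) and BMP2 (ENSDARG00000013409) and the receptor TGFBR3. These shares were not tested. B2 was the highest library for 9 of the 61 pathway genes, against 24.8% of all tested genes, B3 for 14 of the 61, against 20%, and B4 for 6 of the 61, against 19.2%. B2 was at least 2-fold above the rest for TGFBI alone, against 1.48% of all tested genes, and B3 for BMP3 and BMP8A, against 0.989%. B4 was so for none, against 0.816%. B4 was at least 2-fold below the rest for INHBA (ENSDARG00000012671), against 1.5% of all tested genes, and B2 and B3 for none, against 2.12% and 1.47%. The calls of 58 of the 61 genes were the same under 4 scalings, and those of TGFBR3, ACVR1B (ENSDARG00000052142) and SMAD4 (ENSDARG00000075226) changed under some. On the authors' YuGene score, 54 of the 61 had the same highest library and 29 were highest in B1. ID1 scored 0.936 in B1 and 0.986 to 0.989 in the others, and nog2 0.992 in B1 and 0.880 to 0.912 in the others.

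**Figure D3:**
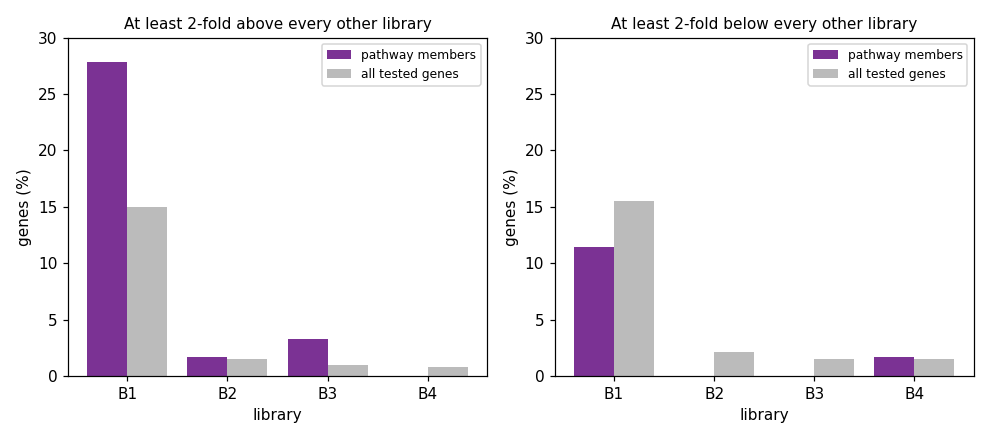
Share of genes (%) for which a library was at least 2-fold above (left) or below (right) every other library, for the 61 tested pathway genes (purple) and all tested genes (grey). B1 holds 27.9% of pathway genes and 15% of all tested genes on the left, and 11.5% and 15.5% on the right.

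The median biological coefficient of variation was 0.493 over the tested pathway genes and 0.477 over all tested genes, and the median span between highest and lowest library was 2.58-fold and 2.49-fold. None of 40 pathway genes with a mean of at least 10 CPM had a coefficient of at least 1, against 0.889% of all such genes. This coefficient is edgeR's estimate, drawn toward that of other genes, and not the observed spread. Among these genes the observed SD exceeded the mean for nog2 (803 against 567 CPM) and SMAD7 (144 against 98.8 CPM). It did so too for BMP5 (16.8 against 11.9 CPM) and the INHBA copy ENSDARG00000012671 (51.5 against 44.8 CPM).

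Gene copies were set against each other within each library. A difference in length shifts such a ratio equally in every library if coverage along the transcripts is alike in all of them, which was not checked. Only the change of the ratio between libraries is read. For 14 pairs of tested copies the SD of the log2 ratio over 4 libraries ran from 0.28 to 1.59, with a median of 0.90, and for 11 of them it spanned at least 1 log2 unit. The INHBA copies moved most, with a log2 ratio of 5.72 in B2 and of 2.15, 3.11 and 2.65 in B1, B3 and B4. The lower INHBA copy had only 34, 36 and 21 counts in B2 to B4. Next came ACVR2A over acvr2ab, at 7.92, 6.27, 4.94 and 4.76 in B1 to B4, where acvr2ab had 8 and 11 counts in B1 and B2. These widest spans thus each involve a copy with low counts in some libraries, and how far counting error widened them was not tested. The SMAD3 copies stood at 0.30 in B1 and at 3.05, 2.24 and 2.63 in B2 to B4, and the TGFBR1 copies at 2.83 in B1 and 0.50, 0.63 and 1.36 in the others. The BMPR2 copies moved least, between 2.65 and 3.24. B1 was the highest or lowest library of the ratio for 12 of 14 pairs, B2 for 6, and B3 and B4 for 5 each. No such count was made over other gene pairs, so this is not read as particular to the pathway. B1 was at least 2-fold above every other library for 15% of all tested genes and below for 15.5%. Reads of near-identical copies may be split by the counting, so the ratios are uncertain to that extent.

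**Figure D4:**
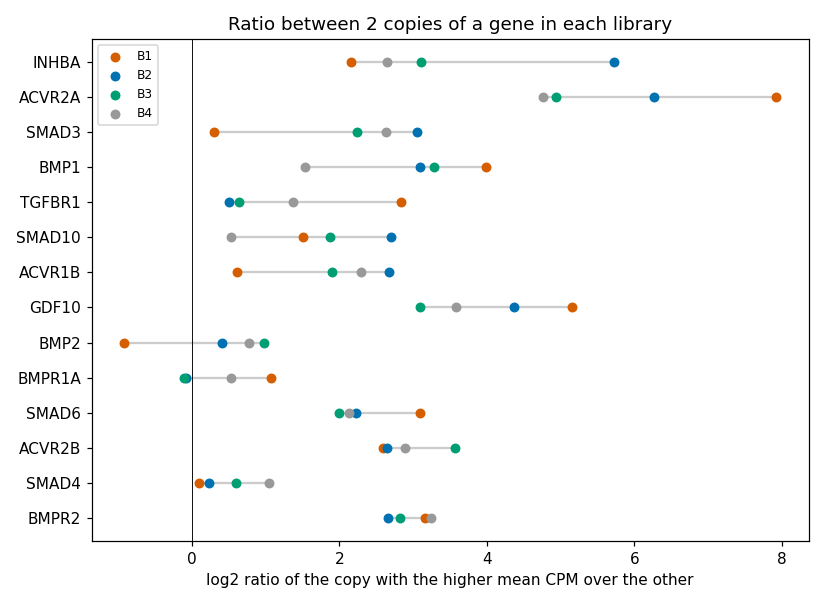
Log2 ratio of reads between 2 copies of a gene in each library (points), ordered by span, with the copy of higher mean CPM on top of the ratio. INHBA spans from 2.15 in B1 to 5.72 in B2, and BMPR2 from 2.65 to 3.24.

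The BMP and TGF-beta arms were compared by their sums. Type I receptors of the BMP arm summed to 254, 238, 223 and 207 CPM in B1 to B4, and those of the TGF-beta and activin arm to 92.0, 47.1, 54.3 and 75.5 CPM. Their log2 ratio was 1.46, 2.33, 2.03 and 1.45, or 1.82 ± 0.44 (SD, n = 4). BMP receptor SMADs summed to 208, 273, 270.5 and 245 CPM, and SMAD2 and SMAD3 to 106, 81.1, 89.8 and 99.2 CPM, a log2 ratio of 1.40 ± 0.34. With no length correction the sign of these ratios sets no order between the arms. The exact sign-flip permutation test over 4 libraries cannot go below p = 0.125, two-sided, and so could not pass for any of these 16 ratios.

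The other genes taken by name were BMP2K and TGFBRAP1. BMP2K, a kinase gene found as BMP2-inducible, was at 155 CPM in B1 and 64.3 to 102 CPM in the others, and passed above the reference level (log2 2.97 ± 0.27, edgeR adjusted p = 1.73e-05). TGFBRAP1, whose product binds TGF-beta receptors and takes part in vesicle tethering, was at 16.0 CPM in B1 and 7.38 to 9.51 CPM in the others, and passed on neither side. Without B1 it lay below (log2 -0.53), and the alternatives gave adjusted p between 0.0361 and 0.80.

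Other genes of the pathway were taken from a list of 96 entries, 85 of which matched an ID, giving 84 IDs, 68 of them tested. By edgeR 42 (61.8%) lay above the reference level and 5 (7.35%) below, against 36.8% and 33.2% of all tested genes, with a median of 28.2 CPM. The number below was 9 by DESeq2 and 10 by limma-voom. TSC22D1, a leucine zipper gene first found as TGF-beta-induced, was at 3413 CPM in B1 and 262 to 317 CPM in the others, with a mean of 1075 CPM, and 296 CPM without B1. The proteoglycan gene DCN, whose product binds TGF-beta, was at 362 CPM in B1 and at 992, 1103 and 525 CPM in the others. The SMAD corepressor gene TGIF1 was at 554, 928, 373 and 449 CPM and the BMP co-receptor gene RGMA at 293, 219, 229 and 279 CPM. The BMP-responsive transcription factor gene atoh8, chosen after its values were seen, was at 429.7 CPM in B1 and 29.8 to 39.8 CPM in the others, the opposite direction to ID1, ID2 and ID3. Both KLF11 copies and HEY1, also chosen so, were lowest in B1. The KLF11 copies were at 97.9 CPM (ENSDARG00000013794) and 95.6 CPM (ENSDARG00000030844) there, against 173 to 229 CPM and 146 to 179 CPM. HEY1 was at 35.2 CPM against 46.0 to 55.2 CPM. B1 was the highest library for 31 of the 68, or 45.6%, against 36% of all tested genes. It was the lowest for 25, a share not counted over all tested genes. B1 was at least 2-fold above every other library for 14 of the 68, or 20.6%, against 15% of all tested genes, and at least 2-fold below for 8, or 11.8%, against 15.5%.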

How the data were processed

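RNA sequencing was made on 4 libraries of EGFP-positive cells. Per the submitters' processing notes, bcl2fastq, R 3.2.2 and the genome build GRCz10 were used. For aligner, counter and annotation nothing is stated in the labels. The deposited values are raw counts per Ensembl ID, whole numbers that the authors had not normalized, and YuGene values, a score between 0 and 1 set within each library. No column was left out. Symbols came from a table of gene names (26269 of 32105 IDs matched), many in human style, and 32 of the 80 members share a symbol with a copy. Members and lists were chosen with earlier results of these data known.

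CPM used TMM factors over all IDs (edgeR 4.0.16, R 4.3.3), 1.03, 0.948, 1.04 and 0.988 for B1 to B4. Genes reaching 1 CPM in 2 or more libraries were fitted with edgeR's quasi-likelihood method. The level was tested against the median tested gene, two-sided, from the drop in deviance, with Benjamini-Hochberg adjustment over 17283 genes at 0.05. Tested on simulated counts for these 17283 genes, it called all 50 genes set 4-fold above the reference level and 42 of 50 set 2-fold above. It called 25 of 50 genes simulated at 0.5 of that level, all 50 at 0.25 of it, and 6 of 200 left at it. The simulated libraries were independent and alike, so these rates do not cover data in which 1 library stands apart as B1 does. A level per length was planned, but no transcript lengths were used here. Fold gaps between libraries and copy ratios are log2 CPM with a prior count of 2. Alternatives used DESeq2 1.42.0 and limma 3.58.1. Reads from amplified RNA with no molecular identifiers do not count single molecules. Genes described in full were chosen by rule. They were the 5 of highest mean CPM in each role and in the list of other pathway genes, and the ID genes. Members of at least 10 CPM with edgeR's biological coefficient of variation at 1 or more were also to be taken. So were members below the reference level with a copy above it. The remaining members are given so that each is accounted for, and those outside the rule that are given a test were chosen after their values were seen. Some genes that the rule takes are not reported here.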

Additional observations from a re-analysis of the deposited data

Results flagged for a closer look

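For 16 of the 61 tested pathway genes, or 26.2%, 1 library lay so far from the other 3 that its gap to the nearest exceeded Dixon's limit for 4 values, as a share of the whole range. For normally distributed values chance alone flags about 1 in 20 genes, a rate that need not hold for CPM. Over all tested genes 16.6% were flagged. B1 was that library for 15 of the 16.

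High in B1 were nog2 at 1771 CPM, SMAD7 at 315.4 CPM, BMP1 (ENSDARG00000028053) at 255.3 CPM and acvr1l at 101.9 CPM. The SMAD6 copy ENSDARG00000031763 was at 80.87 CPM there, ACVR2A at 69.97 CPM, BMP5 at 37.06 CPM and the INHBA copy ENSDARG00000024759 at 25.87 CPM. TGFB2 at 24.11 CPM, SMAD4 (ENSDARG00000012649) at 20.1 CPM, BMPR2 (ENSDARG00000011941) at 17.37 CPM and ACVR2B (ENSDARG00000103108) at 2.52 CPM were high in B1 as well. Low in B1 were ID1 at 286.4 CPM, SMAD5 at 52.68 CPM and ID3 at 30.71 CPM. BMP3 was high in B3, at 12.15 CPM. Of the 5 other pathway genes taken by rule, TSC22D1 was high in B1, at 3413 CPM.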

How the results depend on the processing

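The number of tested pathway genes above the reference level was 24 to 26 under every alternative. The number below it, 14, was 34 with no filter on low counts, and 9 to 19 with each library left out in turn (9 without B4). Of other pathway genes below it, 5, there were 9 by DESeq2, 10 by limma-voom, 23 with no filter and 2 with at least 1 CPM in all 4 libraries. Of all genes below it, 5743, there were 16928 with no filter and 3802 with at least 1 CPM in all 4. The filters' counts differ because more or fewer low genes are tested; for DESeq2, limma-voom and left-out libraries the cause was not tested. All alternatives kept the reference level of 12.6 CPM. Of 33 genes described by rule, 30 kept their call in every setting, and INHBA, SMAD6 and TGFBRAP1 did not: TGFBRAP1 lay below without B1 (log2 -0.53 against -0.25). Leaving out B2, B3 or B4, the genes with B1 at least 2-fold above every other library numbered 18 to 22, against 17. With fewer libraries to exceed, that number was bound to stay or rise apart from rescaling, so it is no check. TMM factors over tested genes, and total counts or RLE factors for the library gaps, were chosen after seeing the data, and moved no library's scale by more than 0.0877 log2 units. The planned length correction was not run. No paired analysis was possible because there is a single group. Depth limits genes under 1 CPM, where 3 counts are 0.0751 to 0.0879 CPM.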
